A study of Mus musculus with 112 samples.

Results

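The comparison described here is between Ala/Ala and Pro/Pro mice in gastrocnemius, the large calf muscle, after a high-fat diet (HFD). Its members are the 17 muscle arrays whose sample titles name Gastroc and HFD, out of 112 arrays in the series: 9 from Ala/Ala mice and 8 from Pro/Pro mice. The series measured fat, muscle and liver of overlapping sets of mice, and 15 HFD mice have both a fat and a muscle array. The series text names the arrays as Affymetrix, although the probe names are not Affymetrix's usual ones and the labels list a dye for each channel. Ala/Ala mice carry the Pro12Ala variant of Pparγ2 as a knock-in on both chromosomes, not limited by the labels to any tissue, and Pro/Pro mice are their wild-type littermates. All were male, were 8 weeks old when the diets began and ate either HFD or regular chow. The series text gives 15 weeks of a feed named D12330, while the sample descriptions give 12 weeks of a feed named D12907B, and the labels do not settle which is right. The most like comparison is the same genotype contrast in muscle on chow, with 10 Ala/Ala and 8 Pro/Pro arrays from other mice. The number of arrays limits the precision.

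PPARγ is a nuclear receptor that binds DNA as a partner of RXR and is needed to make and maintain fat cells, and the γ2 form, which holds the variant site, is made mainly by fat cells. In these cells it switches on genes for lipid storage and for secreted hormones such as adiponectin. Myofibres make little of it, but muscle holds fat cells between its fibres, and a dissected muscle can carry some of the fat around it.

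Every value is the log2 ratio of a mouse to a pool of the Pro/Pro HFD muscle group, so 0 is close to the mean of that group and a ratio gives no level of expression. For that reason the presence of muscle or fat markers in a sample could not be checked, only whether they were higher or lower than in the pool. The titles describe a virtual pool of 10 wild-type HFD mice, whereas the descriptions mention RNA of 10 wild types and name no diet for it. The array medians lay between -0.020 and 0.026. Correlations between muscle arrays ran from -0.20 to 0.57, and 0 pairs were identical. Differences below are Ala/Ala minus Pro/Pro on the log2 scale with the standard error (SE) of limma's fit, and each adjusted p comes from limma with the Benjamini-Hochberg method across 16643 genes. A gene is said to have risen or fallen, or to be called, only at an adjusted p under 0.05.

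On HFD 2 genes rose in Ala/Ala muscle and 0 fell, which is 0.012% of the genes tested. Hdhd5, which encodes a predicted hydrolase of the haloacid dehalogenase family, had a lowest ratio of 0.31, a median of 0.49 and a highest of 0.58 over the Ala/Ala HFD arrays. The corresponding values in Pro/Pro HFD were -0.20, 0.038 and 0.13. All 9 Ala/Ala arrays lay above every Pro/Pro array, and Hdhd5 rose by 0.44 ± 0.07 (adjusted p = 0.00336). Groups did not overlap in 7 of 16643 genes (0.0421%), 4 of them higher in Ala/Ala. Zfp9, a zinc finger gene, had a lowest ratio of 0.0043, a median of 0.50 and a highest of 0.60 in Ala/Ala HFD, against -0.24, -0.0056 and 0.22 in Pro/Pro HFD. Its 8 other Ala/Ala arrays lay above every Pro/Pro array, while that of Mouse128 lay among them. Zfp9 rose by 0.42 ± 0.08 (adjusted p = 0.0235). This call was lost in 10 of 17 fits without 1 HFD array, with adjusted p up to 0.087, whereas the call of Hdhd5 was lost in 0. The call of Zfp9 was also lost after quantile normalization (adjusted p = 0.0633) and in a fit of only the 17 HFD arrays (adjusted p = 0.248).

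Both genes lie on chromosome 6, as does Pparg. In gene order Zfp9 is 80 genes and Hdhd5 115 genes past Pparg. The promoter of Hdhd5 is shown because this gene had the smallest p. The letters are RefSeq's for GRCm38.p6, chr6:120531250-120531549 on the minus strand, from 250 bases before to 50 bases after the gene's start, with CCAAT boxes of either strand in capitals.
Hdhd5: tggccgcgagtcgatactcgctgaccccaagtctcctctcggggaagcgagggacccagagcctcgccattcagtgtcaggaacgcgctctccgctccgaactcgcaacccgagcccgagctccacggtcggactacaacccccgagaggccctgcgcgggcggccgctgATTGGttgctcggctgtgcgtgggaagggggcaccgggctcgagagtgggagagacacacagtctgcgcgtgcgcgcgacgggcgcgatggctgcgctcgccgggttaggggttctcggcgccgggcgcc
A CCAAT box on either strand was found in 37.4% of 32851 promoters of this length, so its presence here is common.

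A gene was represented by its most variable probe set, and the other probe sets of a gene were tested in a separate fit of all 25508 probe sets with 1 gene symbol. There 8 probe sets were called, each of a different gene (0.0314% of those tested), 7 higher (0.0274%) and 1 lower. Of 230 probe sets of genes within 200 genes of Pparg 5 were called, all higher. The smallest p belonged to 1 probe set of Washc2, a subunit of the WASH complex that builds actin on endosomes, which lies 27 genes from Pparg. Its ratios had a lowest value of 0.25, a median of 0.34 and a highest of 0.46 in Ala/Ala HFD, against -0.11, -0.0091 and 0.14 in Pro/Pro HFD, so the groups did not overlap. It rose by 0.36 ± 0.04 (limma, adjusted p = 4.36e-07), and the other Washc2 probe sets differed by 0.19 and 0.23, neither of which passed.

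Adipor2, a receptor for adiponectin that lies 94 genes from Pparg, was the second. One of its probe sets ranged from 0.18 to 0.49 with a median of 0.42 in Ala/Ala HFD and from -0.13 to 0.079 with a median of -0.0025 in Pro/Pro HFD. All Ala/Ala arrays lay above all Pro/Pro arrays, and the probe set rose by 0.41 ± 0.05 (limma, adjusted p = 6.33e-06). The other probe set of Adipor2 differed by 0.17, which did not pass (adjusted p = 0.649). In fat on HFD these 2 probe sets differed by 0.43 and -0.39, in opposite directions. The remaining calls were 1 probe set each of Atp6v1e1, a subunit of the proton pump of lysosomes that lies 120 genes from Pparg (0.19 ± 0.03, adjusted p = 0.0177), of Tulp3, a tubby-like protein of cilia 366 genes away on chromosome 6 (-0.28 ± 0.06, adjusted p = 0.0492), and of Ablim1, an actin-binding protein on chromosome 19 (0.31 ± 0.06, adjusted p = 0.0492), beside Hdhd5, Zfp9 and Retnla. For Atp6v1e1, Tulp3 and Ablim1 another probe set of the gene differed the other way, by -0.065, 0.15 and -0.10. These genes were singled out after their values were seen. Whether probe sets read the alleles of the 2 genotypes equally well was not tested.

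At the false discovery rate of 0.20 that the series text gives, 13 genes passed (0.0781% of those tested), 8 higher (0.0481%) and 5 lower (0.03%). Retnla, a resistin-like protein secreted by alternatively activated macrophages and fat tissue, had a lowest ratio of 0.28, a median of 0.46 and a highest of 0.75 in Ala/Ala HFD, against -0.39, -0.031 and 0.36 in Pro/Pro HFD. Of the Ala/Ala arrays 6 lay above every Pro/Pro array. Its difference was 0.51 ± 0.10 (adjusted p = 0.0665), and it was called over both diets together. Sncg, or γ-synuclein, which is abundant in fat cells and sensory neurons and is one of the adipocyte markers, ranged from -0.052 to 1.41 with a median of 0.94 in Ala/Ala HFD and from -0.35 to 0.32 with a median of -0.014 in Pro/Pro HFD. All Ala/Ala arrays but that of Mouse127 lay above the Pro/Pro arrays, and the difference was 0.80 ± 0.16 (adjusted p = 0.0778).

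The other genes on the higher side included Ctsl, or cathepsin L, a protease of lysosomes, at 0.21 ± 0.05 (adjusted p = 0.126). Trarg1, which regulates the trafficking of the glucose transporter GLUT4 in fat cells and is another of those markers, differed by 0.52 ± 0.12 (adjusted p = 0.161). Hacd2, an enzyme of very long chain fatty acid elongation, differed by 0.52 ± 0.12 (adjusted p = 0.189), while its other 2 probe sets differed by -0.039 and -0.017. Synpo2, an actin-binding protein of the Z disc, differed by 0.38 ± 0.09 (adjusted p = 0.198), and its other 3 probe sets lay between -0.091 and 0.025. The lower side held Ankrd36 (-0.29 ± 0.06), Samd10 (-0.26 ± 0.05), Ppt2, a lysosomal thioesterase (-0.19 ± 0.04), and Opn1mw, a cone opsin (-0.37 ± 0.09), with adjusted p between 0.0778 and 0.197, and 1 clone symbol. In Ppt2 and Opn1mw all 9 Ala/Ala arrays lay below all 8 Pro/Pro arrays. Without a call but among the smallest p were Gabarapl1, an autophagy gene (0.25 ± 0.06), Acad10, of the acyl-CoA dehydrogenase family (0.42 ± 0.10), Gsdme, a gasdermin (0.36 ± 0.09), and Cacna2d4, a calcium channel subunit 91 genes from Pparg (-0.48 ± 0.13).

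**Figure D1:**
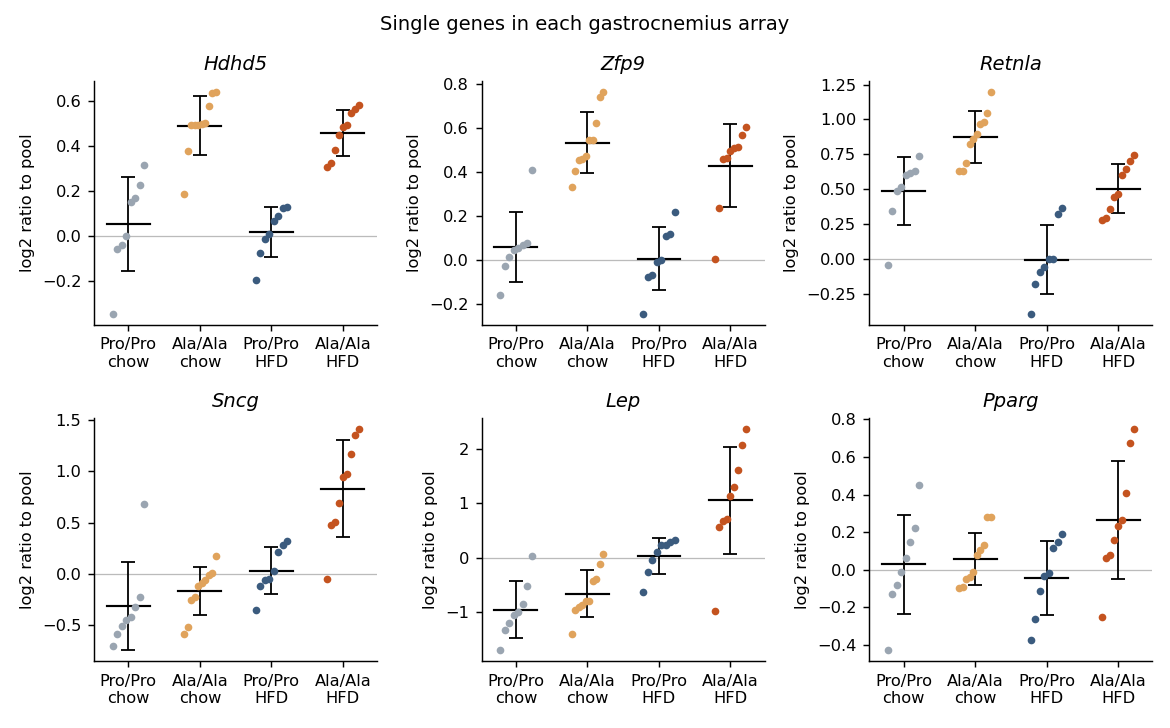
Log2 ratio to the pool (vertical axes) of 6 genes in each muscle array (points), by genotype and diet (horizontal axes), with group mean and SD (bars). On HFD all Ala/Ala points of Hdhd5 lie above the Pro/Pro points, and 1 Ala/Ala point of Zfp9, at 0.0043, lies among them.

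On HFD 1384 genes had an unadjusted p under 0.05 (8.32% of those tested), 731 higher (4.39%) and 653 lower (3.92%). The same genotype contrast on chow had 509 such genes (3.06%), 223 higher (1.34%) and 286 lower (1.72%).

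Fat-cell transcripts had the largest median difference of the 30 gene lists. Of 15 listed adipocyte markers 12 were measured, and all 12 were higher in Ala/Ala HFD muscle, as were 51.3% of all genes. None was called, 10 had an unadjusted p under 0.05 on the higher side and 0 on the lower, and the median difference was 0.72, against 0.0025 over all genes. An adipocyte score, the mean log2 ratio of the 12 markers in an array, had a lowest value of 0.040, a median of 0.48 and a highest of 1.17 over the Ala/Ala HFD arrays, against -0.24, -0.15 and 0.38 over the Pro/Pro HFD arrays. The scores of Mouse117 (1.17), Mouse149 (1.06) and Mouse99 (1.05) were the highest, 6 of 9 Ala/Ala arrays lay above every Pro/Pro array, and the lowest Ala/Ala score was that of Mouse127. The group means differed by 0.63 ± 0.16 (SE of the difference of 2 means). Because these are bulk samples, more fat cells in a sample and more of these RNAs per fat cell cannot be told apart. The list was chosen with these data known, so no test is given for the score.

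**Figure D2:**
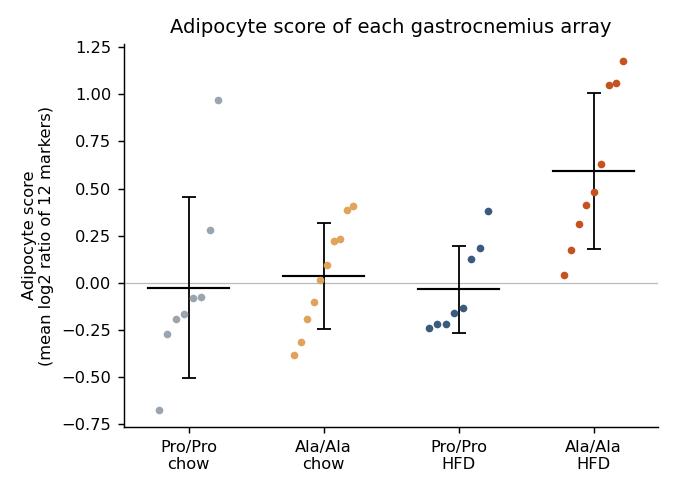
Adipocyte score of each of the 35 gastrocnemius arrays (points; vertical axis, mean log2 ratio of 12 markers), by genotype and diet (horizontal axis), with group mean and SD (bars). The Ala/Ala HFD scores run from 0.040 to 1.17, and the other groups are centred near 0 with a single Pro/Pro chow array at 0.97.

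On chow the difference of the group means was 0.063, and 0 of the 12 markers had a p under 0.05. The Pro/Pro chow arrays held both the highest chow score, 0.97 in Mouse84, and the lowest, -0.68 in Mouse73. Both arrays enter the estimate of the spread of every fat-cell gene on HFD. Without the Mouse84 array, an alternative added after the data were seen, 7 genes were called on HFD: Hdhd5, Zfp9, Retnla, Sncg, Trarg1, Ctsl and Ankrd36. In epididymal fat of HFD mice the same 12 markers had a median genotype difference of -0.040.

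Lep, which encodes leptin, the hormone that reports fat stores to the brain, ranged from -0.97 to 2.37 with a median of 1.14 in Ala/Ala HFD and from -0.63 to 0.32 with a median of 0.17 in Pro/Pro HFD. In 8 Ala/Ala arrays Lep lay above every Pro/Pro array, and in Mouse127 it lay below every one. The difference was 1.02 ± 0.29 (adjusted p = 0.399), and without Mouse127 it was 1.27 and passed (adjusted p = 0.0217). Adipoq, which encodes adiponectin, a hormone that raises insulin sensitivity, ranged from 0.16 to 1.62 with a median of 0.77 in Ala/Ala HFD and from -0.42 to 0.58 with a median of -0.089 in Pro/Pro HFD. Of the Ala/Ala arrays 6 lay above every Pro/Pro array, with a difference of 0.82 ± 0.24 (adjusted p = 0.423). Cfd, or adipsin, a complement protease secreted by fat cells, differed by 0.80 ± 0.24 (adjusted p = 0.427), and Retn, or resistin, by 0.66 ± 0.24 (adjusted p = 0.493).

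Among lipid storage genes, Cidec, which fuses lipid droplets into large ones, ranged from 0.11 to 1.88 in Ala/Ala HFD and from -0.33 to 0.89 in Pro/Pro HFD. Only 4 Ala/Ala arrays lay above the highest Pro/Pro array, that of Mouse131, and the difference was 0.92 ± 0.30 (adjusted p = 0.427). Pck1, which makes glycerol backbones for triglyceride in fat cells, differed by 0.78 ± 0.32 (adjusted p = 0.519), and Fabp4, the fatty acid carrier of fat cells, by 0.44 ± 0.12 (adjusted p = 0.373). The amino acid transporter Slc7a10 differed by 0.52 ± 0.14 (adjusted p = 0.366). The markers with a p above 0.05 were Thrsp, a regulator of lipogenesis (0.15 ± 0.15), and the activin receptor Acvr1c (0.10 ± 0.09).

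The promoters of Adipoq and Lep are shown because they encode the best-known hormones among the fat-cell markers. They come from RefSeq for GRCm38.p6, cover 250 bases before to 50 after the gene's start and stand at chr16:23146286-23146585 for Adipoq and chr6:29059971-29060270 for Lep, both on the plus strand, with motif matches in capitals.
Adipoq: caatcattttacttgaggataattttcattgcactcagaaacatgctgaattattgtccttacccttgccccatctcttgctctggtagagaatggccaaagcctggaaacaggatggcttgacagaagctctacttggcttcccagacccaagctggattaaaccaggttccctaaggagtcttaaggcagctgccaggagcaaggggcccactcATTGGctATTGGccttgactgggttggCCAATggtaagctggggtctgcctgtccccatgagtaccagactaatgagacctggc
Lep: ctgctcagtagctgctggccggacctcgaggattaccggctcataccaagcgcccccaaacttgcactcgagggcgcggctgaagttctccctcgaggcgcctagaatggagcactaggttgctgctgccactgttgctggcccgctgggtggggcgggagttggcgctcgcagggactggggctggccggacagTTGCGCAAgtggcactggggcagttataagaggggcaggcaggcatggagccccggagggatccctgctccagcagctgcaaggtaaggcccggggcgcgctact
The motifs searched on both strands were a pair of AGGTCA letters with any 1 base between them, the repeat that PPARγ and RXR bind together, TTGCGCAA, a palindrome bound by C/EBP factors, CCAAT and TATAAA. They do not overlap each other in these promoters. The capitals mark CCAAT or its reverse in Adipoq and TTGCGCAA in Lep. Of the 12 measured markers 10 had an entry in the table. The AGGTCA repeat was in 0 of the 10 and in 0.0396% of all promoters, TTGCGCAA in 1 of 10 and 0.183%, CCAAT in 2 of 10 and 37.4%, and TATAAA in 0 of 10 and 13.6%.

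The genes outside the lists whose deviations from group means followed the score most closely over the 35 muscle arrays were Prkar2b, a regulatory subunit of protein kinase A (r = 0.93), the amino acid transporter Slc1a5 (0.90), the galectin Lgals12 of fat cells (0.88), Nnmt, which methylates nicotinamide (0.88), Arxes2 (0.88) and the G protein subunit Gnai1 (0.87). These correlations describe arrays that share tissue and platform, and no test is attached. The 6 genes were not called on HFD. Their differences were 0.78, 0.54, 0.26, 0.39, 0.62 and 0.46 in that order, all higher in Ala/Ala. With the score in the fit they were -0.11, 0.050, -0.25, -0.0069, -0.41 and -0.0097. Because the genes were chosen for following the score in these same arrays, their lower differences with it were largely set by that choice.

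Pparg itself, the gene that carries the variant, ranged from -0.25 to 0.75 with a median of 0.24 in Ala/Ala HFD and from -0.37 to 0.19 with a median of -0.026 in Pro/Pro HFD. The groups overlapped, with 5 of 9 Ala/Ala arrays above every Pro/Pro array, led by Mouse117 and Mouse99, which also had high adipocyte scores. The difference was 0.31 ± 0.11 (adjusted p = 0.486) and did not pass. A change of 1 amino acid does not remove the transcript, so this value does not check the genotype labels. On chow Pparg differed by 0.029, and its difference between the diets did not pass (adjusted p = 0.998).

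Known targets of PPARγ in fat cells lay on the same side. Of 20 measured targets 17 were higher, 10 with an unadjusted p under 0.05, and 1 was lower at that p. None was called, and the median was 0.17. Adipoq, Cidec, Fabp4 and Pck1 belong both to these targets and to the adipocyte markers, and each was higher at that p. The target list therefore partly recounts the markers. Besides the markers above, Cebpa, the C/EBP factor that works with PPARγ in fat cells, differed by 0.43 ± 0.16 (adjusted p = 0.488) and the caveolin Cav1 by 0.18 ± 0.05 (adjusted p = 0.399). Among 18 measured partners and coregulators of Pparg 10 were higher, 3 with a p under 0.05, and the median was 0.039. Cebpb differed by 0.31 ± 0.12 (adjusted p = 0.497) and Ppara by 0.22 ± 0.12 (adjusted p = 0.648).

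The genotype difference on HFD was then fitted with the adipocyte score of each array as a covariate, which gives it at an equal level of fat-cell transcripts. The score was measured after genotype and diet had acted, so the fit describes and assigns no cause. A marker was fitted with the score of the other markers. With the score 0 genes were called (0%), and 1253 had an unadjusted p under 0.05 (7.53%), 706 higher (4.24%) and 547 lower (3.29%). At a false discovery rate of 0.20, 9 genes passed (0.0541%), of which 4 had also passed without the score. They were Hdhd5, Zfp9, Ankrd36 and Samd10. The median SE was 0.074 without the score and 0.087 with it. Hdhd5 kept 89.3% of its difference, at 0.40 ± 0.08 (adjusted p = 0.188), and Zfp9 differed by 0.42 ± 0.09 (adjusted p = 0.188). In the fit of every probe set, the 2 probe sets of Washc2 (0.37, adjusted p = 2.54e-05) and Adipor2 (0.36, adjusted p = 0.00289) were called with the score too, 0.00784% of those tested.

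Of the 13 genes at a false discovery rate of 0.20, 3 lost over 50% of the difference: Sncg (0.80 to 0.26), Trarg1 (0.52 to 0.19) and Hacd2 (0.52 to 0.20). Another 8 lost under 25%, among them Ctsl (0.21 to 0.21), Ppt2 (-0.19 to -0.18) and Opn1mw (-0.37 to -0.42). Retnla went from 0.51 to 0.32 and Synpo2 from 0.38 to 0.20. The difference of Pparg went from 0.31 to 0.020 ± 0.09. The median of the adipocyte markers went from 0.72 to 0.029 and that of the PPARγ targets from 0.17 to -0.0095. The score is the mean of these same markers, and Adipoq, Cidec, Fabp4 and Pck1 are also among the targets. The fall of both medians was therefore largely set by how the score was built.

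Over all 1384 genes with an unadjusted p under 0.05 on HFD, the median size of the difference went from 0.17 to 0.15 with the score. These genes were chosen by the fit without the score. Over all 16643 genes the median size went from 0.056 to 0.064, while the median SE also rose, from 0.074 to 0.087. The larger size therefore cannot be read apart from the larger SE. In 203 of the 1384 genes (14.7%) the difference fell by over 50% or turned. Of the 1253 genes with a p under 0.05 with the score, 589 were among the 1384. Whether the fat-cell RNA is a cause of any of these differences was not tested.

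**Figure D3:**
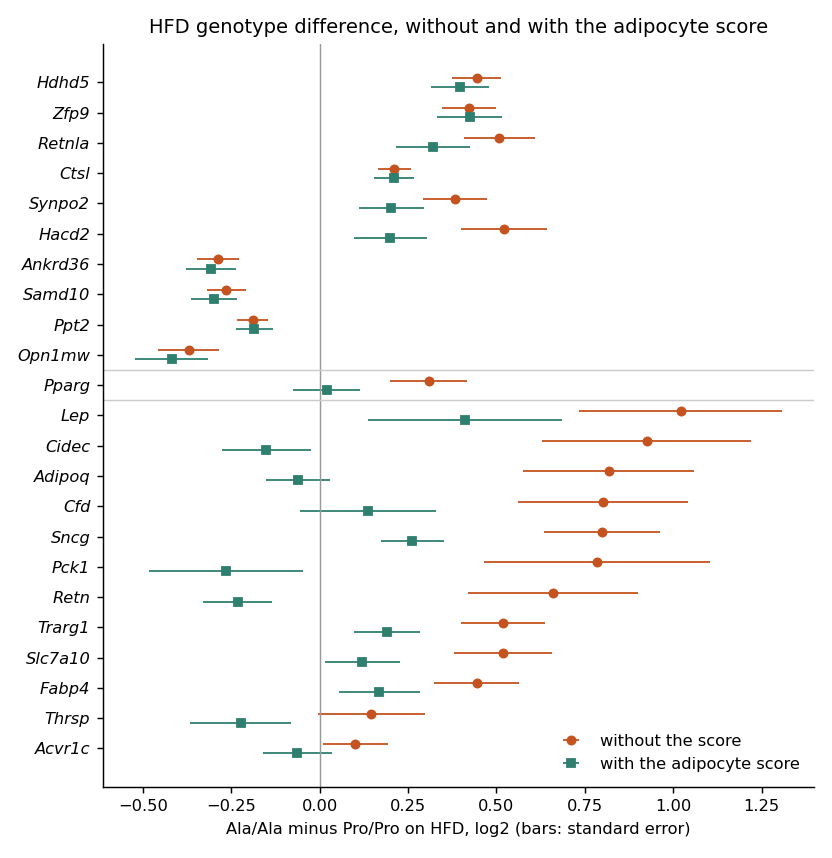
HFD genotype difference (horizontal axis, log2, bars are SE) of 10 genes with a small p, Pparg and the 12 adipocyte markers (vertical axis), without (circles) and with (squares) the adipocyte score in the fit. Lep goes from 1.02 to 0.41 and Adipoq from 0.82 to -0.062, while Zfp9 stays at 0.42. Each marker is fitted with the score of the other markers.

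A second description used slopes from arrays outside the comparison. Within the 18 chow arrays each gene has a slope on the adipocyte score, and this slope times the HFD score difference gives a difference computed from the score alone. Over all 16643 genes these values had a correlation of 0.11 with the observed HFD differences. The share of the sum of squares fitted was -67.6%, where a negative share means that they lay farther from the observed values than 0 did. Error in the slopes, each taken from 18 chow arrays, adds to that distance. The share is therefore no measure of how little the score accounts for. Over the 1384 genes at p under 0.05 the correlation was 0.37 and 10.3% of the sum of squares was fitted, while computed and observed differences had the same sign in 671 of the 1384. Genes are not independent replicates, so neither value has a test.

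A set of 301 genes, chosen after the data were seen, followed the score within the HFD groups with r above 0.6. There the correlation was 0.73 and 57.8% of the sum of squares was fitted. Of these 301 genes 94 were higher and 4 lower at p under 0.05 on HFD, 32.6% of them, and they made up 7.08% of the 1384 genes. The 301 genes were chosen for following the score in these same HFD arrays, and they include markers that form it, such as Adipoq and Cidec. The excess of higher genes was therefore largely set by that choice, and the fit in part. Single markers departed from the chow slopes in both directions. Adipoq was computed at 1.02 and Cidec at 1.04, close to the observed 0.82 and 0.92. Pck1 was computed at 1.41 against 0.78 observed, and Lep at 0.38 against 1.02. Pparg was computed at 0.21 against 0.31, and Hdhd5 at 0.086 against 0.44.

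**Figure D4:**
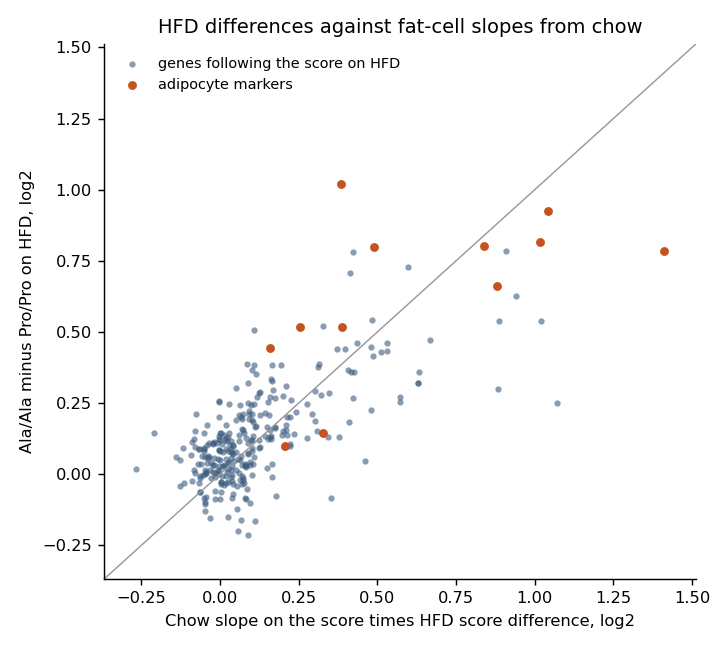
Observed HFD genotype difference (vertical axis, log2) against the difference computed from chow slopes on the adipocyte score (horizontal axis, log2), for genes that follow the score within the HFD groups (blue) and the 12 adipocyte markers (orange). Points on the diagonal have equal values, and Lep lies above it at 1.02 with 0.38 computed.

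Of the muscle's own fibres, slow-fibre genes had a positive median, with a wide spread between arrays, and fast-fibre genes a median near 0. Of 15 slow myofibre genes 13 were higher in Ala/Ala HFD, 2 with a p under 0.05, and the median was 0.27. The mean over the list ranged from -0.45 to 0.49 in Ala/Ala and from -0.93 to 0.25 in Pro/Pro arrays, so the groups overlapped widely. The group means differed by 0.20 ± 0.17 (SE of the difference of 2 means). The lowest array, that of Mouse125 at -0.93, lay far below the next Pro/Pro array at -0.39 and lowered the Pro/Pro mean. Ankrd2, a stretch-responsive protein of slow fibres, differed by 0.36 ± 0.11 (adjusted p = 0.427), and Csrp3, a muscle LIM protein of the Z disc, by 0.40 ± 0.16 (adjusted p = 0.517). Unlike the fat-cell genes this list was farther from 0 with the adipocyte score, at a median of 0.43 with 8 of 15 members at p under 0.05 and 0 called. Myoz2, a calsarcin of slow fibres, went from 0.20 to 0.38 and Myl2, the slow myosin light chain, from 0.27 to 0.49. Within groups the 2 scores had a correlation of -0.36 over the 35 arrays. With the slow myofibre score as the covariate instead, 6 genes were called on HFD (0.0361%), all higher: Hdhd5, Zfp9, Retnla, Sncg, Hacd2 and Ccdc80. The 16 fast myofibre genes had 0 members at p under 0.05 and a median of -0.0011. Satellite cell markers, of the muscle's stem cells, had 0 of 8 at that p and a median of -0.0037.

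Genes of muscle growth, wasting and stress had small positive medians. Of 13 growth and atrophy genes 11 were higher, 4 with a p under 0.05, with a median of 0.11. They were Cdkn1a, a cell cycle inhibitor (0.37 ± 0.12, adjusted p = 0.46), Trim63, a ubiquitin ligase that marks myofibrils for breakdown (0.17 ± 0.07, adjusted p = 0.502), the metallothionein Mt1 (0.65 ± 0.29, adjusted p = 0.562) and the growth factor Igf1 (0.40 ± 0.19, adjusted p = 0.594). Other probe sets of Igf1 lay between -0.12 and 0.35. Of 19 endoplasmic reticulum stress genes 17 were higher, 2 with a p under 0.05, the transcription factors Atf3 (0.67 ± 0.27, adjusted p = 0.513) and Atf4 (0.12 ± 0.05, adjusted p = 0.532), and the median was 0.10. With the adipocyte score the medians of the 2 lists were 0.11 and 0.081.

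In the lists of fatty acid handling 0 genes were called. In the uptake and binding list 8 of 10 genes were higher, 5 with a p under 0.05, with a median of 0.14. Cd36, the fatty acid transporter of the myofibre surface, had Ala/Ala HFD ratios from 0.038 to 0.37 and Pro/Pro HFD ratios from -0.22 to 0.43. The groups overlapped throughout, and the difference was 0.21 ± 0.08 (adjusted p = 0.497), with 2 other probe sets at 0.21. Lpl, which frees fatty acids from lipoproteins, differed by 0.15 ± 0.07 (adjusted p = 0.533). Of 25 PPARα targets 22 were higher, 4 with a p under 0.05, and the median was 0.064. These included Angptl4, an inhibitor of Lpl (0.70 ± 0.30, adjusted p = 0.533), Pdk4, which spares glucose by blocking pyruvate dehydrogenase (0.17 ± 0.08, adjusted p = 0.581), and the pantetheinase Vnn1 (0.40 ± 0.14, adjusted p = 0.484). Fatty acid oxidation enzymes had 18 of 20 higher with a median of 0.049, and 1 of them, Echs1 (0.091 ± 0.04), had a p under 0.05.

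Lists of lipid synthesis and breakdown had positive medians without the score and negative ones with it. Of 19 lipogenesis genes 15 were higher with a median of 0.13, but only 1 in each direction had a p under 0.05, Dgat1, the last enzyme of triglyceride synthesis (0.14 ± 0.07), and Srebf1, the transcription factor of lipogenesis (-0.19 ± 0.08). With the score the median was -0.20, and Scd1, a fatty acid desaturase, went from 0.54 ± 0.30 to -0.40 ± 0.21. The chow slope of Scd1 alone gave a computed difference of 1.02, above the observed 0.54. Whether the turn in sign comes from a slope shared with the chow arrays was not tested. Thrsp belongs both to this list and to the score. Of 13 lipolysis and droplet genes 3 were higher and 1 lower at p under 0.05, with a median of 0.11 and -0.043 with the score. Lipe, the hormone-sensitive lipase, was the lower one (-0.14 ± 0.06). Oxidative phosphorylation (25 genes, median 0.025, 0 at p under 0.05), glycolysis (19 genes, median -0.012, 1 higher) and insulin signalling (22 genes, median 0.019, 2 higher) lay near the median of all genes.

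Lists of macrophage and matrix genes had positive medians and 0 calls. Of 9 alternatively activated macrophage genes 8 were higher and 5 had a p under 0.05, among them Retnla, the lectin Mgl2 (0.33 ± 0.13, adjusted p = 0.494), the lectin Cd209d (0.22 ± 0.10, adjusted p = 0.533) and the haemoglobin scavenger receptor Cd163 (0.40 ± 0.18, adjusted p = 0.56). The list had a median of 0.26, and of 0.17 with the adipocyte score. Of 15 general macrophage markers 13 were higher, 3 with a p under 0.05 (Lgals3, C1qb and C1qc) against 1 lower (Itgax), with a median of 0.11 and of 0.018 with the score. Of 23 extracellular matrix genes 18 were higher and 4 had a p under 0.05: Sparc (0.29 ± 0.08, adjusted p = 0.408), Tgfbi (0.28 ± 0.08, adjusted p = 0.413) and the basement membrane collagens Col4a1 (0.20 ± 0.09) and Col4a2 (0.15 ± 0.07). The matrix median went from 0.088 to -0.031 with the score.

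Connective tissue fibroblast markers had 9 of 10 higher and 2 of 10 at p under 0.05, Mfap5 (0.26 ± 0.08) and Dpt (0.25 ± 0.08), with a median of 0.091. Endothelial markers had 0 of 12, with a median of 0.068. Tendon (0 of 9, median -0.084), brown and beige adipocyte (0 of 9, median -0.060), erythroid (1 of 4, median -0.0089), Schwann cell and nerve (1 of 5, median 0.11) and lymphocyte markers (1 of 8, median -0.031) had at most 1 member at that p. In the last 3 of these lists that member was lower in Ala/Ala. The interferon response list had 1 higher and 2 lower of 12, with a median of -0.054, and in it Ifi27, which differed by 0.71 ± 0.20, went to 0.20 with the score. Circadian clock genes had 0 of 17 at p under 0.05 with a median of 0.049, and immediate early genes, which respond within minutes to handling, 0 of 12 with a median of -0.022. None of the members of these lists was called.

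**Figure D5:**
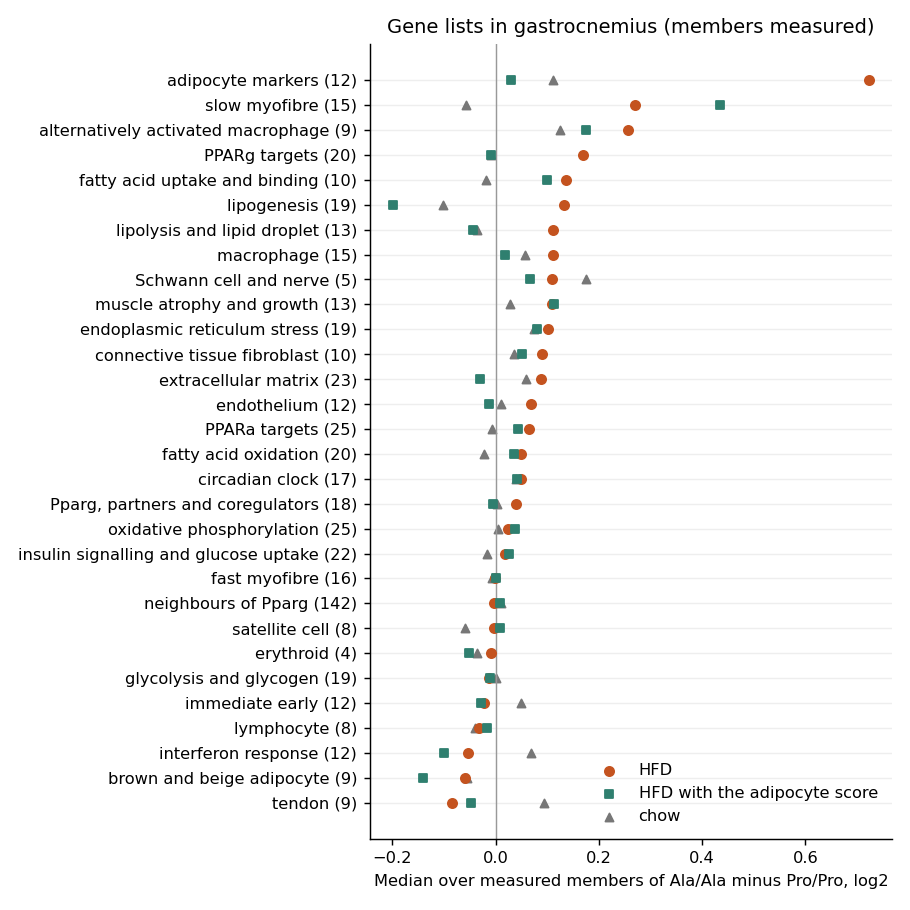
Median genotype difference over the measured members of 30 gene lists (horizontal axis, log2; lists with member counts on the vertical axis) on HFD (circles), on HFD with the adipocyte score in the fit (squares) and on chow (triangles). The adipocyte markers, from which the score is built, go from 0.72 to 0.029 with it, and the slow myofibre genes from 0.27 to 0.43.

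Of 142 measured genes within 200 genes of Pparg in either direction 12 were higher and 13 lower at p under 0.05. Over all 16643 genes 4.39% were higher and 3.92% lower at that p. The 142 genes had a median of -0.0022, and the 2 calls on HFD, 0.012% of all genes, were both among them. Timp4, an inhibitor of matrix proteases at place -3 in gene order counted from Pparg, ranged from 0.11 to 0.79 in Ala/Ala HFD and from -0.81 to 0.45 in Pro/Pro HFD. The groups overlapped, and the difference was 0.52 ± 0.15 (adjusted p = 0.399), with 2 other probe sets between 0.33 and 0.48. Counted in the same way, Cidec lies at place -43 and Lep at place -1744.

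Both genes called on HFD were also called on chow, in other mice that share the pool and the estimate of spread. The chow contrast called 3 genes (0.018%), Hdhd5 (0.44 ± 0.07), Zfp9 (0.47 ± 0.07) and the clone 3110021A11Rik (-0.27), which lies near Cacna2d4 and differed by -0.17 ± 0.05 on HFD (adjusted p = 0.427). Over both diets 4 genes were called (0.024%), these 3 and Retnla. Tested for an effect that differs by diet, 0 genes were called (0%), while 618 had an unadjusted p under 0.05 (3.71%), with a smallest adjusted p of 0.846 (limma). The 12 fat-cell markers had a median difference of 0.72 on HFD and 0.11 on chow, where Lep differed by 0.29 and Adipoq by 0.17, and the difference between the diets passed for 0 of the 12.

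Set beside fat of the HFD mice, 16 genes had a genotype effect that differed between the tissues (0.0961%), 13 with the higher effect in muscle (0.0781%) and 3 in fat (0.018%). Zfp9 was among them, at 0.42 in muscle and -0.033 in fat (difference adjusted p = 0.0337, limma over 72 arrays). Hacd2 differed by 0.52 in muscle and -0.11 in fat (adjusted p = 0.0337). Ankrd36, at -0.29 and 0.15, Opn1mw, at -0.37 and 0.14, and Cacna2d4, at -0.48 and 0.15, were the 3 with the lower effect in muscle. The difference of Hdhd5 was 0.44 in muscle and 0.30 in fat, and that of the 2 tissues did not pass (adjusted p = 0.584).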

How the data were processed

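Values were deposited by the authors as log10 ratios of each sample to a pool, made with Rosetta Resolver per the series text, which names an Affymetrix array; the sample labels list a dye for each of 2 channels. The deposited log10 ratios were turned to log2. The log base and direction were checked on fat and liver and taken over for muscle. Of 32640 probe sets 25508 had 1 gene symbol, 0 several and 7132 none. A gene was its probe set with the highest variance within the 4 muscle groups. limma 3.58.1 in R 4.3.3 fitted 4 group means over 35 muscle arrays, with Benjamini-Hochberg adjustment over 16643 genes. The scripts were tested on simulated data. Replicates are separately numbered mice. Named genes were Pparg, those called, up to 12 with the smallest p in each direction without clone symbols, the adipocyte markers, up to 4 members per list by p and the 6 most like the score. Members and lists were chosen with earlier results of these data known. HFD groups hold different mice and share no numbers.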

Additional observations from a re-analysis of the deposited data

Results flagged for a closer look

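Of 76 groups looked at over 38 measures, 2 held an array far from the rest, where chance gives about 5 percent. Acvr1c in Mouse117 of the Ala/Ala HFD group was 0.5425, against 0.2096 in the next array. Fabp4 in Mouse131 of the Pro/Pro HFD group was 0.6445, against 0.1266 in the next.

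The genotype effect on HFD differed between muscle and fat by limma's test for 5 named genes. The muscle minus fat difference was 0.4549 for Zfp9, 0.6343 for Hacd2, -0.4403 for Ankrd36 and -0.5116 for Opn1mw (adjusted p = 0.0337 each), and -0.6355 for Cacna2d4 (adjusted p = 0.0404).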

How the results depend on the processing

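The 2 calls on HFD became 1 after quantile normalization, with only the 17 HFD arrays, and by the methods' t-test, which gave 1326 genes at p under 0.05 and 17 at a false discovery rate of 0.20. They became 4 among the more variable genes, 5 with the mean over probe sets, 8 with every probe set and 13 at a false discovery rate of 0.20. Leaving out 1 HFD array gave 1 to 6 calls: 1, Hdhd5, without Mouse117, Mouse118, Mouse137, Mouse149, Mouse152, Mouse80, Mouse94 or Mouse99, and 6 without Mouse127. The slow myofibre score as a covariate gave 6 calls, and leaving out the chow array of Mouse84, chosen after seeing the data, gave 7. With the adipocyte score the 0 calls became 2 with every probe set and 9 at a false discovery rate of 0.20, and leaving out 1 array gave 0 to 1, the 1 being Zfp9 without Mouse128. Calls over both diets were 9 with the mean over probe sets and 4 to 8 with 1 array left out (7 without Mouse127 and 8 without Mouse84). Chow calls were 2 to 3, diet differences 0 to 0, and the score difference 0.555 to 0.697. The cause of these changes was not tested.

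The share of the sum of squares from chow slopes, -67.6% over all genes, was -95.1% with markers outside the PPARγ targets, -41.7% with Adipoq alone, -91.2% without Mouse84 and -90.7% without Mouse73 (both chosen after seeing the data), and ran from -80.2% to -54.6% with 1 HFD array left out. Over the genes that follow the score, 57.8% became 46.1%, 65.5% and, without Mouse84, 50%, and 48% without the adipocyte and PPARγ lists, with a range of 50.3% to 62.7%. With the score, Pparg turned to -0.00749 with markers outside the PPARγ targets, -0.0406 with both scores and -0.0858 in the 17 HFD arrays, Cidec to 0.0216 with Adipoq alone, and Adipoq to 0.108 and Pck1 to 0.131 in the 17 HFD arrays.

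The mouse number as a replicate block left the muscle minus fat calls at 16. No paired analysis was possible between the genotypes because their groups hold different mice.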
